A study of Mus musculus with 56 samples.

Results

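The comparison described here is between the TGF-β1 response of ras-transduced and of untransduced primary mouse keratinocytes after 24 h of treatment. The values compared come from 12 of the 56 arrays of the series, and the spread behind the tests was estimated over 45 arrays, these among them. The 12 are the 6 ras arrays at 24 h whose dyes were not reversed and the 6 primary arrays at 24 h. The quantity followed for each gene is its log2 ratio, treated over untreated, in ras cells minus the same ratio in primary cells, called the difference below. A positive difference means that the treated-over-untreated ratio was higher in ras cells, whether because the gene rose more or because it fell less.

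TGF-β1 binds a receptor pair on the cell surface that phosphorylates SMAD2 and SMAD3, and these enter the nucleus with SMAD4 and change transcription. In epithelial cells such as keratinocytes it is known for stopping the cell cycle and for inducing matrix genes. Ha-ras is an oncogene that drives the MAP kinase cascade, and in mouse skin an activated form of it starts papilloma growth. Ras signalling also acts on SMAD proteins and on AP-1, a transcription factor that works with them.

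Keratinocytes were taken from the skin of newborn Balb/c mice. Primary cells were cultured without further change. Ras cells had received a retrovirus carrying Ha-ras, which cannot replicate, on day 3 of culture, and were used after 4 days of infection, with fresh medium 24 h before treatment. The labels name no empty-vector control, so retroviral infection and the oncogene cannot be told apart. Each array compared 1 culture condition with itself: untreated RNA labelled with Cy3 and RNA from cells given TGF-β1 at 1 ng/ml for 24 h labelled with Cy5. The remaining arrays cover 1, 6 and 48 h in the same cells, and Smad3 wild-type and knockout cells. The values are ratios within a cell type, so they hold no level of any gene in untreated ras against untreated primary cells, and the keratinocyte label could not be checked against marker levels. The labels do not say whether the arrays of a group came from separate cultures. If they repeat the same RNA, the p-values reflect technical spread alone.

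The 12 arrays were uneven. The SD of the log2 ratios over 9596 probes was 1.81 on ras replicate 1 and 1.19 on ras replicate 3. On the other 10 arrays it lay between 0.268 and 0.853. Averaged by gene, the probes gave 8905 features (6795 named genes, and probes without a single gene name). Ratios beyond 4 in either direction were found for 324 features on ras replicate 1 and 107 on ras replicate 3, against 0 to 48 on the rest. Primary replicate 5 was unlike its group in another way, which other arrays shared in part. Its Spearman rho over all features was 0.67 with ras replicate 6 and 0.63 with ras replicate 7, but −0.16 to 0.15 with the other 5 primary arrays. Ras replicate 5 had its highest rho, 0.59, with primary replicate 2, against 0.48 or less with ras arrays. Ras replicate 3 had 0.25 with primary replicate 3, against 0.12 or less with ras arrays. Primary replicate 6 had 0.17 or less with primary arrays. The mAdb ID numbers in the labels start with 39 for both ras replicate 6 and primary replicate 5, and with 40 for both ras replicate 7 and primary replicate 6. The last 2 had a rho of 0.11. Arrays of both cell types also share the starts 35 and 36. The labels do not say whether a shared start means a shared experiment. Values are for all 12 arrays. They are also given without ras replicates 1 and 3 where those arrays decide a call or move a value by over 1.5 times, and without primary replicate 5 where it changed a called difference.

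**Figure D1:**
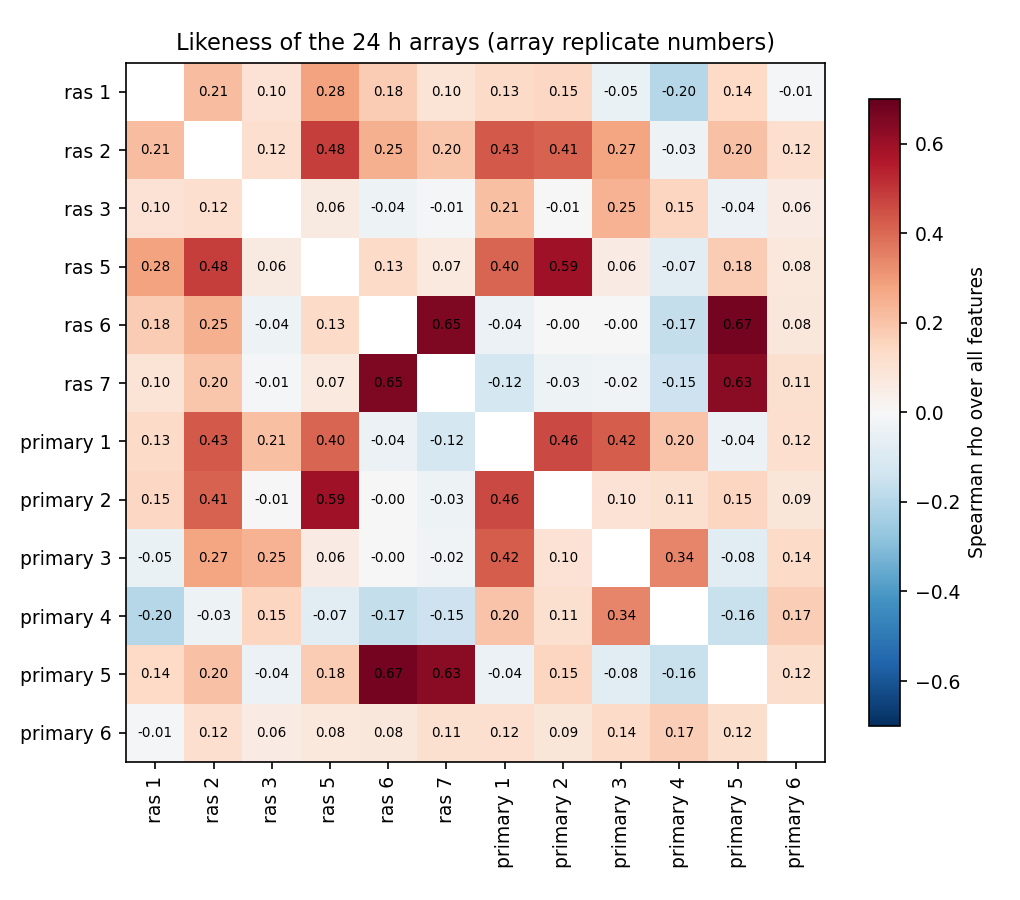
Spearman rho between each pair of the 12 arrays, over all features, with ras and primary replicate numbers on both axes (colour and printed value). The highest value joins primary replicate 5 with ras replicate 6, at 0.67.

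Both cell types responded at 24 h, and few genes differed between them beyond the spread of the arrays. In the limma fit, 4 of 8905 features (0.0449%) had a difference at a Benjamini-Hochberg adjusted p under 0.05. The ratio was higher in ras cells for 3 of them (0.0337%), Ctla2a, Mtg2 and Sprr2a1, and lower for 1 (0.0112%), Pdgfc. An unadjusted p under 0.05 was reached by 921 features (10.3%). Without ras replicates 1 and 3 only Ctla2a was called (1 feature, 0.0112%), and 503 features (5.65%) reached an unadjusted p under 0.05. Without primary replicate 5 there were 5 calls: Mtg2, Ctla2a and Pdgfc stayed, Lgals3 and Psap joined, and Sprr2a1 left with an adjusted p of 0.0837. The response itself was called for 936 features (10.5%) in ras cells, 342 up (3.84%) and 594 down (6.67%), and for 121 features (1.36%) in primary cells, 31 up (0.348%) and 90 down (1.01%). Without ras replicates 1 and 3 the ras count was 211 (2.37%), 96 up (1.08%) and 115 down (1.29%). The calls also rest on the spread estimated over all times: with the 12 arrays at 24 h fitted alone, 0 differences were called (503 with an unadjusted p under 0.05), and the 4 genes had adjusted p of 0.313 to 0.757. With array weights, 135 were called, 105 positive and 30 negative. The weights were lowest for ras replicates 1 (0.11) and 3 (0.297) and primary replicates 6 (0.377) and 5 (0.49). Some genes not called without weights passed there. Negative ones included F3, Kif20a, Hspa5 and Hsp90b1. Positive ones included Mt1, Mt2, Prdx2, Psme1, Psap, Grn, Lgals3, Lgals7, Ctsd, Krt8, Rpl27a and Rpl28. Below, calls refer to the fit without weights unless another fit is named. The unequal counts of responses in the 2 cell types are no test of a difference between the cell types.

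The 5th percentile of the difference over all features was −0.94 and the 95th percentile 0.51. Without ras replicates 1 and 3 they were −0.57 and 0.48, so the long lower tail went with those arrays. The 6 ras values lay wholly above the 6 primary values for 20 features (0.225%) and wholly below for 14 (0.157%), or 34 either way (0.382%). The 4 ras arrays other than replicates 1 and 3 lay apart from the primary arrays for 99 features (1.11%).

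**Figure D2:**
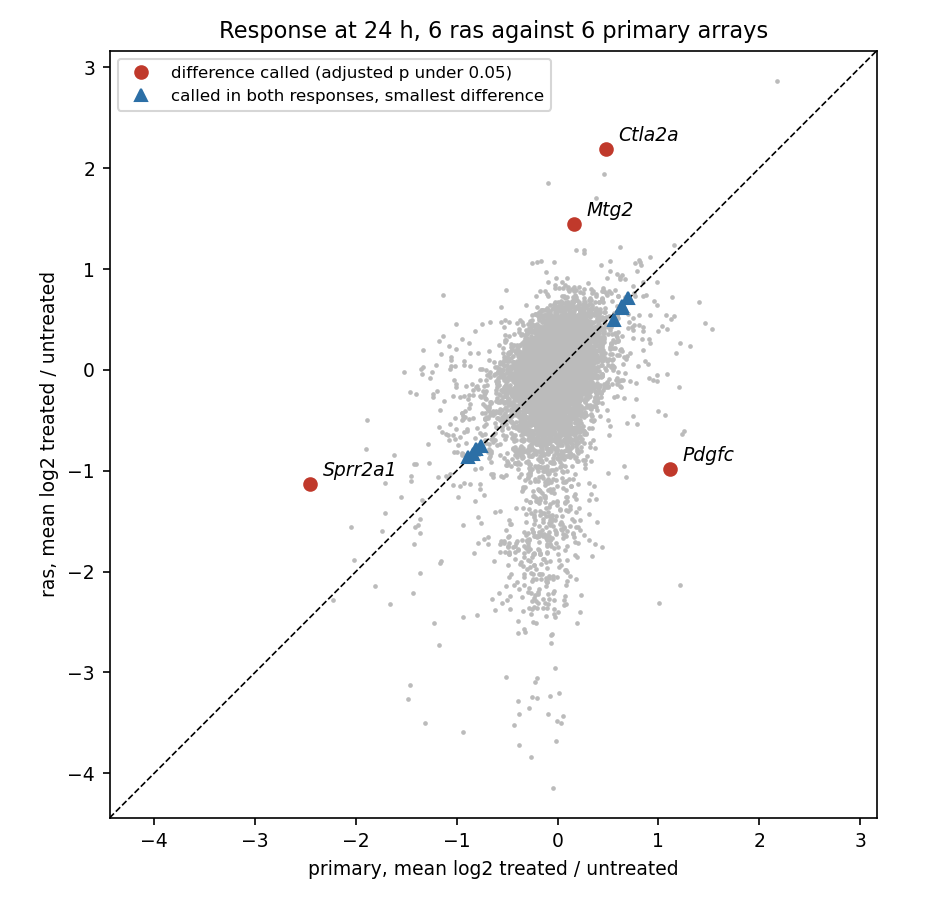
Mean log2 ratio (treated over untreated) at 24 h in primary cells (horizontal) and ras cells (vertical), 1 point per feature, with equal responses on the dashed line. Ctla2a and Mtg2 lie above the line at primary values near 0, Sprr2a1 above it at negative values, and Pdgfc below it.

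The regions just before the start of the 4 called genes are shown because these genes carry the difference. Each is the 250 bases upstream of a listed transcription start, read 5′ to 3′ on the gene's strand, from RefSeq on build GRCm38.p6. Ctla2a has 2 listed starts, and that nearest the annotated start of the gene was used. In the Mtg2 window, 20 bases lie within the annotated extent of the gene. Capitals mark CAGAC, the core bound by SMAD3, its reverse complement GTCTG, and TGANTCA, the AP-1 motif, which reads alike on both strands. The marked runs do not overlap. The windows are chr13:60936626-60936875 (minus strand) for Ctla2a, chr2:180070343-180070592 (plus strand) for Mtg2, chr3:92215585-92215834 (plus strand) for Sprr2a1 and chr3:81036166-81036415 (plus strand) for Pdgfc.
Ctla2a: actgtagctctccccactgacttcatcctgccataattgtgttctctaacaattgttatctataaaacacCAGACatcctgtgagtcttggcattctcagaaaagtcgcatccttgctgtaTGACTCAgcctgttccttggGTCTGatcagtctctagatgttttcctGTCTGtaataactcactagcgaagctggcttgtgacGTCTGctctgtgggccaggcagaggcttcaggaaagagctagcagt
Mtg2: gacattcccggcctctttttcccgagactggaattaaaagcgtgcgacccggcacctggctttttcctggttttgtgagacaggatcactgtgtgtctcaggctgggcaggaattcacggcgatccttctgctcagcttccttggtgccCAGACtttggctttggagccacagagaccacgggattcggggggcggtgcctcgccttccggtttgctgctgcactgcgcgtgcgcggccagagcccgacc
Sprr2a1: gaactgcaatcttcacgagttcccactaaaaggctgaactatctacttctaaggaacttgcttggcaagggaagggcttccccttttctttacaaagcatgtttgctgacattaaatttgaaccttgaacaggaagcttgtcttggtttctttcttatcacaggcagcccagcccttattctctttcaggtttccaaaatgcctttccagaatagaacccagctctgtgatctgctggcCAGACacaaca
Pdgfc: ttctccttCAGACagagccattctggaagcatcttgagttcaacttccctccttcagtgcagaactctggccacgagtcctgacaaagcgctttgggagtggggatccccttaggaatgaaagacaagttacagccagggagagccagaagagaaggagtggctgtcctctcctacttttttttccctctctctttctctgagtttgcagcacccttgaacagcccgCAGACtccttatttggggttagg

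The Ctla2a window held 4 CAGAC matches over both strands and 1 TGANTCA match. The window of its neighbour and paralog Ctla2b, which lies within the annotated extent of that gene and is not printed, also held 4 and 1. The 2 windows were identical at 209 of 272 aligned positions (76.8%). The Mtg2 and Sprr2a1 windows held 1 CAGAC match each and the Pdgfc window 2, and none of these 3 windows held TGANTCA. Among 32851 RefSeq windows of the same length, 42.2% held CAGAC at least once, 0.393% held it 4 or more times, and 6.75% held TGANTCA. A match describes these letters and is not evidence of a bound site.

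Ctla2a, which encodes a cysteine protease inhibitor related to the cathepsin propeptide, had the largest positive difference among the called genes. Its log2 ratio on the ras arrays ran from 0.83 to 3.54 with a median of 2.52. On the primary arrays it ran from 0.10 to 0.97 with a median of 0.44. Ras replicate 3 was the lowest ras array and fell within the primary range, while the other 5 ras arrays lay above every primary array. The difference was 1.70 (SE 0.34, limma adjusted p = 0.0228), a 3.26-fold gap between the ratios, and 1.96 (SE 0.35, adjusted p = 0.0206) without ras replicates 1 and 3. The call was lost when any 1 of ras replicates 1, 2, 6 and 7 or primary replicates 1, 3 and 4 was left out, with differences of 1.43 to 1.64 and adjusted p of 0.0874 to 0.164. In ras cells Ctla2a rose 4.55-fold (adjusted p = 1.04e-07), and in primary cells its response of 0.48 did not pass the test (adjusted p = 0.497).

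Ctla2b, the paralog next to it, showed nearly the same figures. The ras arrays ran from 0.48 to 2.83 with a median of 1.97, and the primary arrays from 0.15 to 0.75 with a median of 0.44. Ras replicate 5 was the array inside the primary range. The difference was 1.48 (SE 0.32) and missed the threshold with an adjusted p of 0.0646, and it was 1.54 (adjusted p = 0.244) without ras replicates 1 and 3. It passed with the start of the mAdb ID as a block (1.49, adjusted p = 0.0355) and without ras replicate 5 (1.78, adjusted p = 0.00221). It also passed with array weights (1.81, adjusted p = 0.000357) and with the noisiest 10% of features left out (adjusted p = 0.0437). The ras rise of 1.94 was called (adjusted p = 3.7e-07). The sequences of the 2 probes are not used here, and related transcripts may hybridise to either, so the pair may not be 2 separate measurements.

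Mtg2 encodes a GTPase of the mitochondrial ribosome, and its groups did not overlap. The ras arrays ran from 0.87 to 1.78 with a median of 1.61, and the primary arrays from −0.19 to 0.60 with a median of 0.08. The difference was 1.28 (SE 0.22, adjusted p = 0.00583), and it passed the threshold in each of the 12 fits that left out 1 array. Without both ras replicates 1 and 3 it was 1.19 and no longer called (adjusted p = 0.0923). Mtg2 rose in ras cells by 1.45 (adjusted p = 9.99e-08), against 0.16 in primary cells (adjusted p = 0.914). The probes for Mtg2 and Ctla2a carry the identifier numbers 643436 and 643434, and the unnamed probe numbered 643435 between them had mean log2 ratios of 0.12 in ras and −0.12 in primary cells. Whether the near numbers bear on either value was not tested.

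Sprr2a1 encodes a small proline-rich protein of the cornified envelope, the shell built by keratinocytes as they finish differentiating. It fell in both cell types, and less in ras cells. The ras arrays ran from −1.62 to −0.53 with a median of −1.22, and the primary arrays from −3.61 to −1.64 with a median of −2.28. The groups did not overlap, though the lowest ras array, replicate 6, lay just above the highest primary array, replicate 2. The fall was 2.20-fold in ras cells (adjusted p = 0.000192) and 5.48-fold in primary cells (adjusted p = 1.9e-12), and the difference was 1.32 (SE 0.26, adjusted p = 0.0228). The call was lost without ras replicates 1 and 3 (1.18, adjusted p = 0.303) and in 8 of 12 fits that left out 1 array, with an adjusted p up to 0.109: those without ras replicate 1, 2, 3, 5 or 7, or primary replicate 1, 3 or 5, with differences of 1.09 to 1.36. Sprr2a1 has near-identical neighbouring copies, whose transcripts this probe may not separate.

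Pdgfc, a growth factor that acts on the platelet-derived growth factor receptors of mesenchymal cells, was the 1 feature called in both responses with opposite signs. The ras arrays ran from −2.20 to 0.54 with a median of −1.24, and the primary arrays from −0.03 to 2.77 with a median of 1.10. Ras replicates 5 and 6 were positive and lay within the primary range. The 2 lowest ras arrays were the wide replicates 3 and 1. The difference was −2.10 (SE 0.39, adjusted p = 0.0179). It was −1.55 (adjusted p = 0.517) without ras replicates 1 and 3, where the ras response was −0.43 and not called (adjusted p = 0.536). Leaving out ras replicate 1, 3 or 7, or primary replicate 1 or 3, alone also ended the call, with differences of −1.77 to −2.03 and adjusted p of 0.0759 to 0.0982. The primary rise of 1.11 was called (adjusted p = 0.0251).

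F3, tissue factor, the starter of blood clotting, had opposite signs on all arrays but did not pass the test. All 6 ras values were negative, from −1.45 to −0.25 with a median of −0.38, and all 6 primary values positive, from 0.29 to 1.15 with a median of 0.80. The difference was −1.33 (SE 0.34, adjusted p = 0.285), and −1.36 (adjusted p = 0.533) without ras replicates 1 and 3. With array weights it was −1.36 and passed (limma adjusted p = 0.00813).

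**Figure D3:**
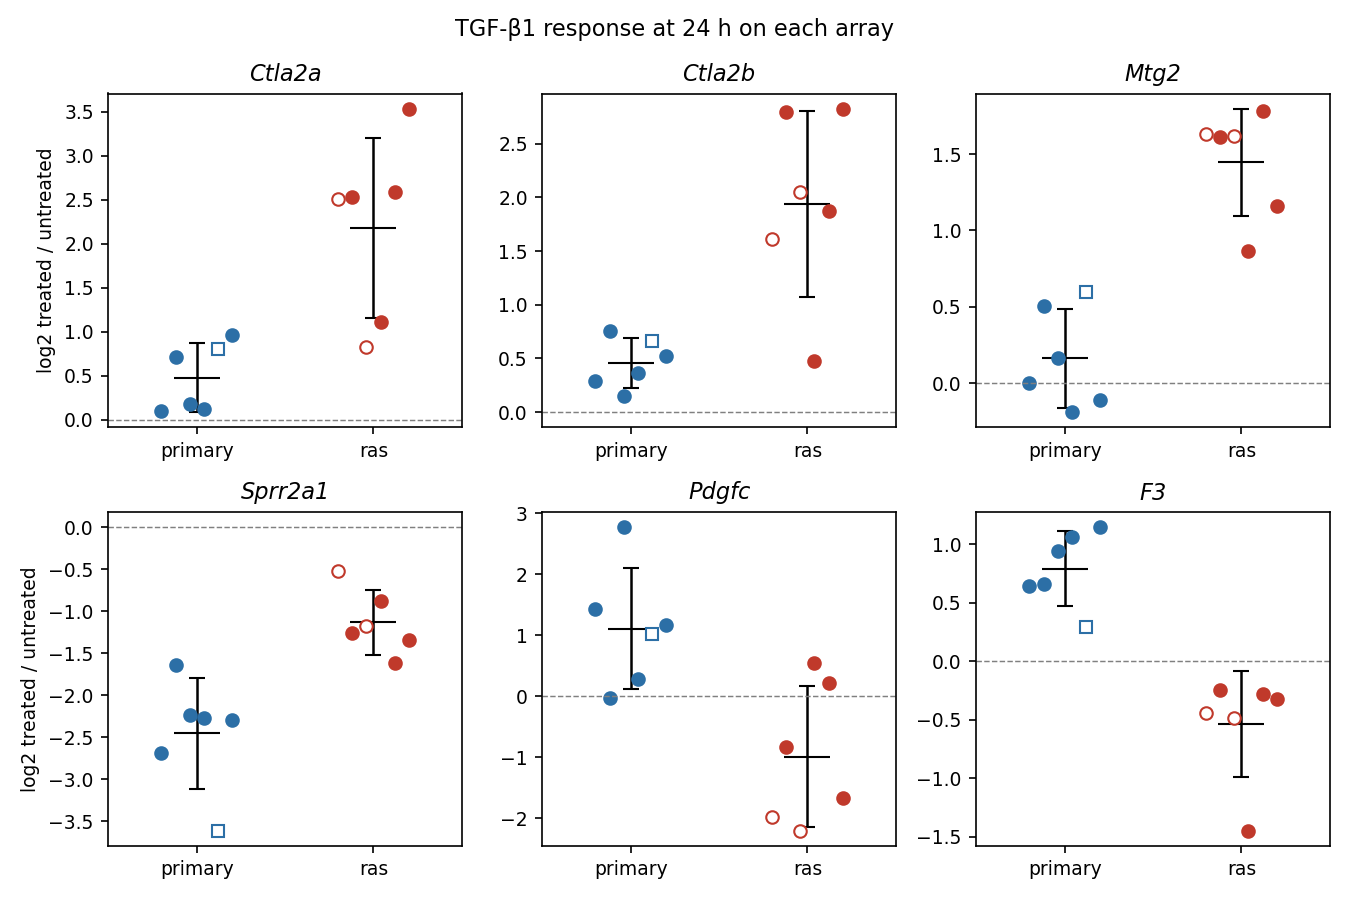
Log2 ratio (treated over untreated) at 24 h on each array for 6 genes, with bars for the mean ± SD of 6 arrays (open red circles are ras replicates 1 and 3, and the open blue square is primary replicate 5). The groups are apart for Mtg2, Sprr2a1 and F3, and overlap for Ctla2a, Ctla2b and Pdgfc.

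The same genes at the other times set the 24 h values in their course, from 6 or 7 arrays per group at 1 and 6 h and from 4 ras and 3 primary arrays at 48 h. Ctla2a in ras cells had mean log2 ratios of 0.09 ± 0.42 at 1 h, 0.83 ± 0.39 at 6 h, 2.19 ± 1.02 at 24 h and 0.68 ± 0.33 at 48 h (SD). In primary cells the means were 0.33 ± 0.77, 0.39 ± 0.51, 0.48 ± 0.39 and 2.02 ± 0.52. The primary mean was thus the higher at 48 h, with a difference of −1.34 that did not pass the test (adjusted p = 0.276). Ctla2b likewise had the higher mean in ras cells at 24 h and in primary cells at 48 h, with 0.69 ± 0.49 in ras and 1.62 ± 0.70 in primary cells at 48 h. Mtg2 stood above 1 in ras cells at 24 h alone, with means of 0.12, 0.23, 1.45 and 0.02. Sprr2a1 at 48 h was at −2.22 ± 0.61 in ras and −2.33 ± 0.72 in primary cells, so the gap seen at 24 h was 0.10 there. Pdgfc in ras cells was at −0.99 ± 1.16 at 24 h and 0.50 ± 0.36 at 48 h, and in primary cells at 1.11 ± 0.99 and 1.34 ± 0.16. F3 was higher in ras cells at 1 and 6 h, with differences of 0.64 and 1.18, and lower at 24 h. Over all features, 0 differences were called by limma at 1 h (371 features, 4.17%, with an unadjusted p under 0.05) and 0 at 6 h (409 features, 4.59%), 4 at 24 h and 18 (0.202%) at 48 h.

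**Figure D4:**
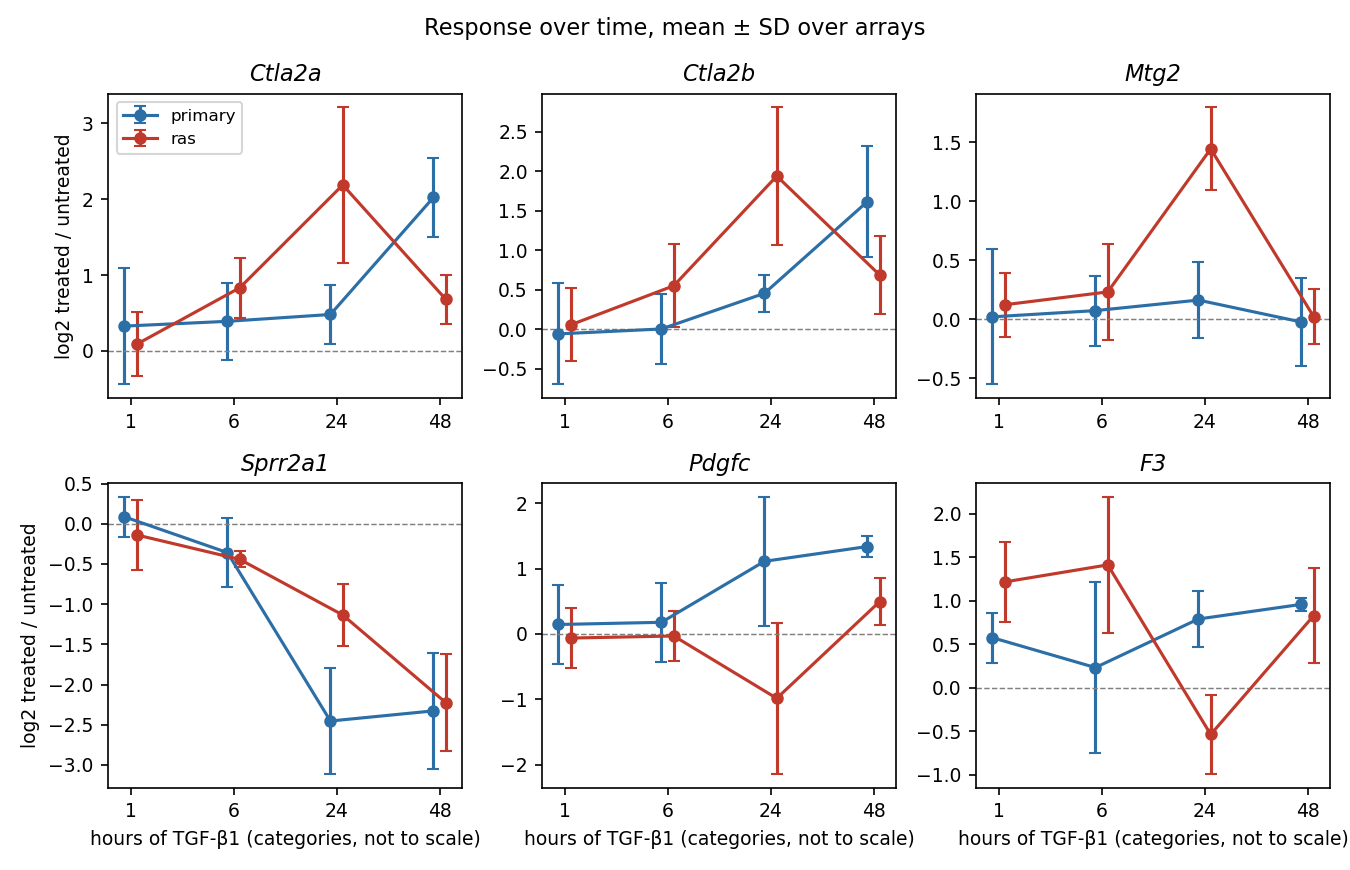
Mean ± SD of the log2 ratio over the arrays of each cell type at 1, 6, 24 and 48 h, for the same 6 genes. Ctla2a in ras cells is at 2.19 at 24 h and 0.68 at 48 h, while in primary cells it is at 0.48 and 2.02.

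Other genes moved the same way in both cell types. Called in both responses were 17 features with a rise in each (0.191%) and 45 with a fall in each (0.505%). There were 11 (0.124%) and 33 (0.371%) without ras replicates 1 and 3. Among the rises with the smallest difference, Mmp2, a collagen-degrading protease, rose by 0.63 in ras and 0.64 in primary cells, and the 95% interval of its difference was −0.42 to 0.40. Serpinh1, the collagen chaperone HSP47, rose by 0.50 and 0.56 (interval −0.45 to 0.33). Snx30, a sorting nexin, rose by 0.72 and 0.70 (interval −0.47 to 0.51), and Tead2, a partner of the YAP coactivator, by 0.61 and 0.64 (interval −0.50 to 0.45). The ras rises of these 4 genes were 0.57 to 0.66 and missed the threshold (adjusted p of 0.0586 to 0.105) without ras replicates 1 and 3. On the primary side, replicate 6 stood apart from the other arrays for Serpinh1 (1.29) and Tead2 (1.46).

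The falls with the smallest difference were genes of cell division. Mad2l1, a spindle checkpoint protein, fell by 0.83 in ras and 0.83 in primary cells (interval of the difference −0.52 to 0.53). Ccna2, cyclin A2, fell by 0.75 and 0.76 (interval −0.43 to 0.45), and its ras fall was 0.62 and not called without ras replicates 1 and 3 (adjusted p = 0.072). Plk1, a mitotic kinase, fell by 0.87 and 0.89 (interval −0.62 to 0.67), and Rrm2, a subunit of ribonucleotide reductase, by 0.78 and 0.81 (interval −0.53 to 0.58). Without ras replicates 1 and 3 the differences of these 8 genes lay between −0.18 and 0.14. Tgfb1 itself had a difference of −0.05 (SE 0.22), and −0.28 without them. Smad3 had one of 1.03 with an SE of 0.69, and 0.29 without ras replicates 1 and 3, which held its 2 highest ras values.

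The gene lists that follow are described by counts and medians beside those of all 6795 named genes, of which 3815 had a positive difference, with a median of 0.05 (0.03 without ras replicates 1 and 3). No list was tested as a set. Of the pathway's own genes, 34 were measured, a mix of TGF-β and SMAD targets and of pathway components such as receptors and SMADs. The difference was positive for 17 and negative for 17, and 0 were called. Their median difference was −0.01, and 0.08 without ras replicates 1 and 3. Clu, which encodes the secreted chaperone clusterin, had among the largest responses, with a rise of 2.86 in ras and 2.18 in primary cells. Its difference of 0.69 (SE 0.48, adjusted p = 0.635) turned negative when the arrays were scaled to 1 spread (−0.18) or quantile normalised (−0.25), and when the reversed ras array was added as deposited (−0.06). Id2, an inhibitor of basic helix-loop-helix factors, fell in primary cells by 0.87 (adjusted p = 0.0139) and had a ras value of −0.25 that was not called. Its difference of 0.62 (SE 0.29) did not pass (adjusted p = 0.475). Junb, an AP-1 subunit, had a difference of 0.76 (SE 0.31, adjusted p = 0.451), with primary replicate 5 lowest at −3.13. Without that array the difference was 0.28.

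Among the effectors of the response, 44 extracellular matrix genes had a median difference of 0.05 (0.09 without ras replicates 1 and 3), with 25 positive and 0 called. Col18a1, a basement membrane collagen, rose in ras cells by 1.04 (adjusted p = 0.00102) and stood at 0.43 in primary cells (adjusted p = 0.404), a difference of 0.61 (SE 0.27, adjusted p = 0.471). Fbln5 and Mfap5, both of elastic fibres, had negative differences of −0.77 (SE 0.37) and −0.52 (SE 0.21), neither called. For Fbln5 primary replicate 6 stood at 3.39, and the difference without that array was −0.27. The 34 integrin, adhesion and actin genes had 24 positive differences and a median of 0.05, which was 0.16 without ras replicates 1 and 3. Cttn, cortactin, a regulator of branched actin, ran from 0.216 to 1.03 on the ras arrays and from −0.16 to 0.2155 on the primary arrays. Its groups all but met, and its difference of 0.42 (SE 0.22, adjusted p = 0.505) did not pass.

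Of 17 genes of the mesenchymal shift, 5 had a positive difference, the median was −0.09 (−0.12 without ras replicates 1 and 3), and 0 were called. Tagln, a smooth muscle actin-binding protein, had a difference of −1.05 (SE 0.43, adjusted p = 0.451). Its primary values ran from −0.97 on replicate 5 to 3.66 on replicate 6, and its ras values from −0.99 to 1.13. Of 32 proteases and protease inhibitors, 20 were positive, 1 was called (Ctla2a), and the median was 0.14. Ctsd, cathepsin D, a lysosomal protease, had a difference of 0.71 (SE 0.23, adjusted p = 0.421).

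Several epidermal differentiation genes fell. Of 18 measured, 9 fell (6 without ras replicates 1 and 3) and 0 rose in ras cells, and 6 fell and 0 rose in primary cells. Over all features, falls were called for 6.67% in ras (1.29% without ras replicates 1 and 3) and 1.01% in primary cells. The list's median response was −0.75 in ras and −0.67 in primary cells, and its median difference was 0.09. Sprr2a1 was the 1 member whose difference was called. Fabp5, the epidermal fatty acid-binding protein, fell by 1.55 in ras and 2.05 in primary cells, with a difference of 0.49 (SE 0.28, adjusted p = 0.539). Sprr1a, another cornified envelope precursor, fell by 1.42 and 1.71, with a difference of 0.29 (SE 0.33), 0.46 without ras replicates 1 and 3, that turned negative under array weights and without primary replicate 6.

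Among 36 keratin, desmosome and junction genes 29 differences were positive, with a median of 0.24 (0.18 without ras replicates 1 and 3), and 0 were called. Lgals7, galectin-7, a lectin of stratified epithelia, ran from −0.71 to 0.11 on the ras arrays and from −1.32 to −0.51 on the primary arrays. It fell in primary cells by 1.00 (adjusted p = 0.00047), stood at −0.16 in ras cells (adjusted p = 0.622), and had a difference of 0.84 (SE 0.25, adjusted p = 0.357). Gja1, a connexin of gap junctions, likewise fell in primary cells by 0.84 (adjusted p = 0.00187) and had a difference of 0.59 (SE 0.23, adjusted p = 0.45). Krt8, a keratin of simple epithelia, rose in ras cells by 1.16 (adjusted p = 0.0188) and had a difference of 0.90 (SE 0.45, adjusted p = 0.481), with primary replicate 5 at 2.09 and the other primary arrays between −0.47 and 0.24.

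Some cell division genes fell. Of 39 genes of mitosis, 18 fell in ras (15 without ras replicates 1 and 3) and 9 in primary cells and 0 rose in either. The median difference was −0.02, and −0.20 without ras replicates 1 and 3. Over all features, falls were called for 6.67% in ras (1.29% without ras replicates 1 and 3) and 1.01% in primary cells. Kif20a, a kinesin of cytokinesis, fell in ras cells by 1.46 (adjusted p = 0.00026) against −0.78 in primary cells (adjusted p = 0.109), and its difference of −0.68 (SE 0.35) did not pass (adjusted p = 0.49). Kif11 and Cenpe, motors of the spindle, had differences of −0.44 (SE 0.29) and −0.34 (SE 0.18). Of 36 DNA replication genes 5 fell in ras and 4 in primary cells. Their differences were positive for 22, with a median of 0.04 that became −0.12 without ras replicates 1 and 3. Gins1, part of the replicative helicase, had a difference of 0.49 (SE 0.20). Of 22 cell cycle inhibitors and G1 regulators 15 were positive, with a median of 0.11 (0.20). Ccnd2, cyclin D2, had a difference of 0.80 (SE 0.29, adjusted p = 0.449), with values from −0.16 to 0.82 on the ras arrays and from −1.10 to 0.68 on the primary arrays, where replicate 5 was the 1 positive array.

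The MAP kinase list mixes immediate early and EGFR ligand genes with members of the cascade itself, such as Nras, Braf and Map2k1, and the receptor Egfr. It showed no called difference among 31 measured, with 17 positive and a median of 0.06 (0.14 without ras replicates 1 and 3). Epha2, a receptor tyrosine kinase of epithelia, rose in ras cells by 0.59 (adjusted p = 0.0232), with all 6 ras arrays between 0.41 and 0.71. The rise was 0.60 and not called (adjusted p = 0.125) without ras replicates 1 and 3. Its primary arrays ran from −0.80 to 0.72, and the difference was 0.56 (SE 0.24, adjusted p = 0.462). Ets2, a transcription factor phosphorylated by MAP kinase, had a difference of 0.45 (SE 0.22, adjusted p = 0.476).

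Of 42 cytokine, chemokine and NF-κB genes 16 were positive, the median was −0.09 (−0.15 without ras replicates 1 and 3) and 1 was called (Pdgfc). Csf1, the macrophage growth factor, rose in primary cells by 1.53 (adjusted p = 0.000476) and stood at 0.40 in ras cells, with a difference of −1.13 (SE 0.38, adjusted p = 0.434). Its ras values were split, from −0.48 to 1.07, and its primary values ran from 0.45 to 2.86. Mif, a cytokine that is also abundant in cells at rest, ran from −0.10 to 0.51 on the ras arrays and from −0.79 to −0.10 on the primary arrays, with a difference of 0.63 (SE 0.21, adjusted p = 0.449). Nfkbiz, a nuclear regulator of NF-κB, had all ras arrays below all primary arrays and a difference of −2.40 (SE 0.88, adjusted p = 0.449). Ras replicate 6 was at −9.18, the other ras arrays ran from −1.34 to −0.16, and the difference without replicate 6 was −1.03. Of 27 interferon and antigen presentation genes 17 were positive, with 7 rises in ras (6 without ras replicates 1 and 3) and 0 in primary cells and a median difference of 0.09 (0.22 without ras replicates 1 and 3). Over all features, rises were called for 3.84% in ras (1.08% without ras replicates 1 and 3) and 0.348% in primary cells. Psme1, an activator subunit of the proteasome, rose in ras cells by 0.71 (adjusted p = 0.0014) against 0.07 in primary cells, a difference of 0.64 (SE 0.20, adjusted p = 0.405). Usp18, an interferon-induced protease, rose in ras cells by 1.22 (adjusted p = 0.00219) and had a difference of 0.60 (SE 0.35), or 1.02 without ras replicates 1 and 3.

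Of the lists for growth and energy use, 0 members had a called difference. All 24 cytosolic ribosomal protein genes were positive, with a median of 0.29 (0.31 without ras replicates 1 and 3, and 0.40 without primary replicate 5). The median of the 24 genes on single arrays ran from 0.04 to 0.15 in ras cells and from −0.50 to 0.26 in primary cells, so the primary arrays held the spread. No ribosomal protein gene was called in either response. Rpl28 had a difference of 0.46 (SE 0.16) and Rpl27a 0.41 (SE 0.17), and in both the highest primary array was replicate 5. Ribosomal protein genes have many processed pseudogenes, whose transcripts the probes may not separate.

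Of 48 genes of oxidative phosphorylation and the mitochondrial ribosome 40 were positive, with a median of 0.22, and of 32 MYC target and ribosome biogenesis genes 25, with a median of 0.24. Ndufv3, a subunit of respiratory complex I, had a difference of 0.53 (SE 0.19), and Atp5g3, a subunit of ATP synthase, 0.33 (SE 0.15). Fbl, fibrillarin, which methylates ribosomal RNA, fell in primary cells by 0.59 (adjusted p = 0.0206) and had a difference of 0.51 (SE 0.20). Phb2, a prohibitin of the inner mitochondrial membrane, had one of 0.67 (SE 0.24). Of 18 cholesterol and fatty acid synthesis genes 15 were positive, with a median of 0.34. The median of the 18 genes on single arrays ran from −0.23 to 0.39 in ras cells and from −1.39 to 0.03 in primary cells. The middle of these array medians was −0.04 in ras and −0.08 in primary cells, so the typical arrays were close. Hsd17b7 and Nsdhl, both enzymes of cholesterol synthesis, had differences of 0.71 (SE 0.27) and 0.51 (SE 0.24). On their primary arrays replicate 6 was lowest, at −2.53 and −1.89, and replicate 5 next, at −1.13 and −0.98.

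Of 15 glycolysis and hypoxia genes 10 were positive, with a median of 0.12. Pkm and Tpi1, enzymes of glycolysis, fell in primary cells by 0.55 and 0.72 (adjusted p = 0.0141 and 0.00232). Their differences of 0.48 (SE 0.18) and 0.44 (SE 0.20) were not called. Of 35 antioxidant and detoxification genes 22 were positive, with a median of 0.10 (0.03). Prdx2, a peroxiredoxin, rose in ras cells by 0.42 (adjusted p = 0.0173) and had a difference of 0.51 (SE 0.16, adjusted p = 0.411). The metallothioneins Mt1 and Mt2, metal-binding stress proteins, had differences of 1.25 (SE 0.48) and 1.11 (SE 0.53). Their primary replicates 1 to 4 lay between −1.65 and −0.71, while replicate 5 was at 2.78 and 3.22 and replicate 6 at 0.99 and 1.47. Of 24 unfolded protein response and chaperone genes 18 were positive, with a median of 0.10 (0.20 without ras replicates 1 and 3), and the endoplasmic reticulum chaperones Hspa5 and Hsp90b1 were negative, at −0.52 (SE 0.19) and −0.42 (SE 0.19). Of 31 apoptosis and p53 genes 22 were positive, with a median of 0.07 (0.12). None of these differences was called in the fit without array weights.

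**Figure D5:**
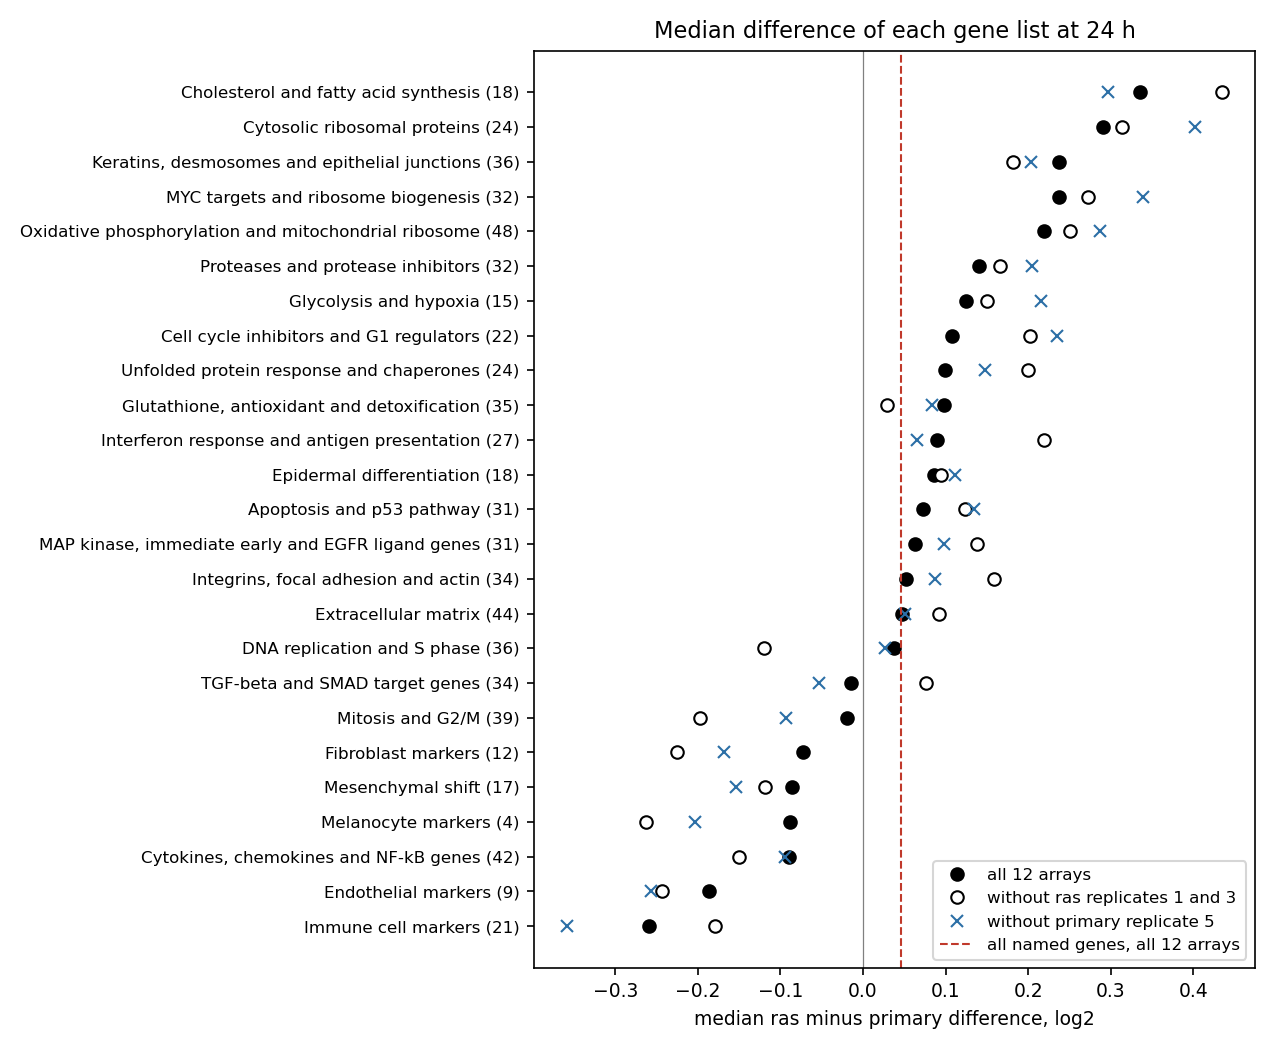
Median ras minus primary difference (log2) of each gene list at 24 h, with the number of measured genes in brackets, for all 12 arrays, without ras replicates 1 and 3, and without primary replicate 5. Cholesterol synthesis and ribosomal proteins lie highest, at 0.34 and 0.29 with all arrays, and immune cell markers lowest, at −0.26.

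Cultures of skin can hold other cells, so markers of those were followed in the same way. In bulk samples a change in the number of cells of a type and a change in RNA per cell cannot be told apart. Of 21 immune cell markers 5 had a positive difference, with a median of −0.26 (−0.18 without ras replicates 1 and 3), and 0 were called. The median of the list on single arrays ran from −0.48 to 0.28 in ras and from −0.35 to 0.35 in primary cells. Lyz2, the lysozyme of macrophages, rose in primary cells by 0.91 (adjusted p = 0.00197), where replicate 6 stood apart at 1.98. In ras cells its rise of 0.54 (adjusted p = 0.0422) was 0.25 and not called (adjusted p = 0.591) without ras replicates 1 and 3, where the difference went from −0.37 to −0.66. Ptprc, the CD45 antigen of leukocytes, had a difference of −1.15 (SE 0.33, adjusted p = 0.339), with ras replicate 1 at −2.37 and primary replicate 1 at 1.73. It was −0.66 without ras replicates 1 and 3. Cd79a, a B cell receptor subunit, had a difference of −0.71 (SE 0.28). The 5 positive immune markers included Cd4, at 0.53 (SE 0.36), and Cd8a, at 0.46 (SE 0.51). Of 12 fibroblast markers 4 were positive, with a median of −0.07 (−0.23), of 9 endothelial markers 4, with a median of −0.19 (−0.24), and of 4 melanocyte markers 1, with a median of −0.09 (−0.26). Sox10, of the melanocyte list, stood at −6.14 on ras replicate 1, and its difference of −1.63 became −0.54 without ras replicates 1 and 3. Dct, of the same list, had a positive difference of 0.71 (SE 0.29, adjusted p = 0.451). The part of these cells in the differences of Csf1, Pdgfc and the mesenchymal genes was not tested.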

How the data were processed

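The authors deposited 1 table of log2 ratios, for 9596 probes on 56 two-colour arrays, with no missing value and no intensities, so signal over background and depth are unknown. Per the labels, channel 1 (Cy3) is untreated and channel 2 (Cy5) treated RNA. The base of the log was taken as 2, and the direction, treated over untreated, is the likely one from this order, since neither is stated. How the authors scanned, corrected, filtered and normalized the arrays is not given in the sources used here. A dye bias that is the same on all arrays cancels in the ras minus primary difference, but not in the response of either cell type.

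Each array was centred on its median. Of the probes, 7486 had 1 gene symbol, 483 several and 1627 none, and probes of 1 symbol were averaged (631 genes with several probes). limma 3.58.1 (R 4.3.3) was fitted over the 45 Balb/c arrays whose dyes are not reversed, in 8 groups, with 37 residual degrees of freedom. Two-sided tests were adjusted by Benjamini-Hochberg over 8905 features and called at an adjusted p under 0.05. The fit was also run on simulated data with planted shifts. The simulated noise was normal and independent between arrays, without the likeness seen between real arrays, so it does not check the calls under such likeness.

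The same fit was repeated without ras replicates 1 and 3 and under the alternatives of the closing section. Genes named are the largest called differences, up to 8 each way, list members called or with the smallest p in the fit without ras replicates 1 and 3, up to 4 genes each way called in both responses with the smallest difference, genes with opposite responses, and Smad3 and Tgfb1. Not all that the rule allows are named, and Psap, Grn, Lgals3, Ctsb, Ctss, Dct, Cd4 and Cd8a were chosen after their values were seen. The arrays, the 25 gene lists and the rule were chosen with earlier results of these data known. Replicate numbers do not pair the arrays: the deviations of 5 same-numbered pairs from their group means correlated at −0.23 to 0.12. Promoter sequences come from RefSeq.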

Additional observations from a re-analysis of the deposited data

Results flagged for a closer look

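The difference between the cell types itself passed the test for Ctla2a (1.70), Mtg2 (1.28), Sprr2a1 (1.32) and Pdgfc (−2.10).

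Among 136 groups of 6 arrays, for 68 genes in 2 cell types, 22 held an array far from the other 5 (Dixon's test). The genes were chosen with these values known and share the same arrays, so the count cannot be set against a chance rate. In the primary cells, replicate 6 was that array for Fbln5 (3.39), Cenpe (−1.20), Rb1 (−1.78), Usp18 (2.35), Tpi1 (−1.72), Lyz2 (1.98), Tead2 (1.46) and Serpinh1 (1.29). Replicate 5 was that array for Junb (−3.13), Krt8 (2.09), Ccnd2 (0.68) and Prdx2 (0.39), and replicate 1 for Ptprc (1.73). In the ras cells, replicate 1 stood apart for Sox10 (−6.14) and Ctsb (−9.82), replicate 3 for Ctsd (−0.41) and replicate 5 for F3 (−1.45). Ras replicate 6 stood apart for Sprr1a (−0.16) and Nfkbiz (−9.18), and replicate 7 for Gja1 (0.43), Rpl28 (0.47) and Nsdhl (0.55).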

How the results depend on the processing

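With all arrays 4 differences were called. Leaving out 1 array gave 1 to 5 calls: 1 without ras replicate 1 or 7 or primary replicate 1 or 3 (Mtg2 each time), 2 without ras replicate 2 or 3, and 5 without primary replicate 5. Without ras replicates 1 and 3 there was 1 call, with the start of the mAdb ID as a block 5, and with both changes 1. Without primary replicate 5 as well as ras replicates 1 and 3, an alternative chosen after seeing the data like the last one, there were 5. The 24 h arrays alone gave 0 calls in limma (503 features at an unadjusted p under 0.05), and 0 without ras replicates 1 and 3 (596). Array weights gave 135 calls, 105 positive and 30 negative. Scaling the arrays to 1 spread gave 1, quantile normalization 5 and no centring 4. Adding the reversed ras replicate 4 gave 2 as deposited and 1 with its sign turned. Single probes gave 4, robust empirical Bayes 4, and leaving out the noisiest 10% of features 5. Over 27 settings Mtg2 was called in 20, Pdgfc in 15, Ctla2a in 14 and Sprr2a1 in 12, and none of the 4 changed sign. Ctla2b, not called with all arrays, was called in 4, the mAdb ID block among them (adjusted p = 0.0355).

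The replicate numbers do not pair the arrays, and 0 of 5 ras arrays correlated best with the primary array of their own number. With the replicate number as a block there were also 4 calls, 1 positive and 3 negative, of which Mtg2 (1.27) and Pdgfc (−2.13) were called without it and Zdhhc17 (−3.44) and an unnamed probe (−2.62) were not.

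Clu reversed to −0.18 when arrays were scaled, −0.25 under quantile normalization and −0.065 with the reversed array as deposited, and Sprr1a reversed to −0.12 under array weights and −0.075 without primary replicate 6, with a range up to 0.44 over the fits that left out 1 array. The cause of these changes was not tested. The median SE of a difference was 0.26, and 6071 features (68.2%) had a 95% interval within 1 either way. For a feature that was not called, a smaller difference is not excluded.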

Other observations

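No list was made of lysosomal genes, and Psap, Grn and Lgals3 were singled out after their values were seen, for their positive differences. The 6 cathepsins of the protease list, most of them lysosomal, went both ways and none was called. Besides Ctsd (0.71), Ctsb had a difference of −2.10 (SE 0.84), which was −0.23 without ras replicates 1 and 3, and Ctss one of −0.68 (SE 0.30), while the other cathepsins lay between 0.01 and 0.28. Psap, the precursor of the saposins that help degrade sphingolipids, rose in ras cells by 0.59 (adjusted p = 0.00963) and stood at −0.12 in primary cells, with a difference of 0.71 (SE 0.21, adjusted p = 0.339). Its ras arrays ran from 0.16 to 1.18, and its primary arrays from −0.93 to 0.28 but for replicate 5, at 0.98. Grn, progranulin, rose in ras cells by 0.82 (adjusted p = 0.00195) against 0.10 in primary cells, with a difference of 0.72 (SE 0.24, adjusted p = 0.434). Lgals3, galectin-3, which gathers at damaged lysosomes, fell in primary cells by 0.79 (adjusted p = 0.0124) and stood at 0.17 in ras cells, with a difference of 0.96 (SE 0.26, adjusted p = 0.312). Here too primary replicate 5 was the 1 positive primary array, at 0.63, against −1.33 to −0.58 on the others. Without primary replicate 5 the differences of Lgals3 (1.24, adjusted p = 0.0124) and Psap (0.93, adjusted p = 0.0228) passed the threshold.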
